A study of Mus musculus with 22 samples.

Results

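The genes described here make up the core of the major histocompatibility complex (MHC) class I presentation route in mouse cells. They were chosen by symbol, with earlier results of these data known. They are the heavy chains H2-K1, H2-D1 and H2-Q7, the light chain B2m, and the peptide transporter and loading genes Tap1, Tap2 and Tapbp. The immunoproteasome subunits Psmb8, Psmb9 and Psmb10 complete the list. All 10 were found among the 23953 gene symbols of the expression table, and they hold 14 of its 31641 transcript rows. BV2 is an immortalised microglial line, and the labels of all its libraries carry the tag notx, read here as no treatment. In every group its cells hold a lentiviral vector with a gene for puromycin resistance. Nmu cells carry an N-terminal fragment of human huntingtin (HTT) with 128 glutamines, driven by a CMV promoter, Nwt cells carry the same fragment with 15 glutamines, and pCDH cells carry the empty vector. Each construct has 1 RNA library at 24 h and 1 at a second time, which is 6 h in the table's header and 48 h in the labels. Each construct also has 1 chromatin immunoprecipitation (ChIP-seq) library for each of 4 antibodies, to PU.1, to C/EBPβ, to C/EBPα and to the histone mark H3K4me2, labelled 24 h. Adult mice with 175 glutamines in both HTT alleles (Q175) and with 7 (Q7) gave 1 RNA library each of brain microglia, sorted as CD11b+ CD45Low cells of cortex, striatum and hippocampus, and of bone marrow derived macrophages (BMDM) grown in L-cell conditioned medium. Whether a transduced line was a clone, and whether any 2 libraries came from separate cultures or animals, is not said in the labels. The p-values below thus cover the spread among these libraries alone, and that spread may be technical.

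Nearly every cell shows fragments of its own proteins on class I molecules, where CD8+ T cells read them. The proteasome cuts proteins into peptides, the transporter made of Tap1 and Tap2 carries the peptides into the endoplasmic reticulum, tapasin (Tapbp) helps to load them, and a heavy chain with beta-2 microglobulin (B2m) takes them to the surface. Interferons raise most of these genes in many cell types and replace the constitutive proteasome subunits Psmb5, Psmb6 and Psmb7 by Psmb8, Psmb9 and Psmb10, and resting microglia are known for low class I display.

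The stretches just upstream of the heavy-chain and light-chain genes are shown because class I promoters are known for sites of NF-κB and of interferon regulatory factors, and because PU.1 peaks in BV2 cells lay next to the starts of the 3 heavy chains. They are RefSeq sequences of the GRCm38.p6 assembly, 200 bases each, ending at the last base before the annotated start for H2-D1, H2-Q7 and B2m and for the first of the 2 starts listed for H2-K1. Capitals mark the NF-κB consensus and an interferon-type motif on either strand, GAANNGAAA or its form with an A added before the spacer NN.
H2-K1 (chr17:34000348-34000547, minus strand): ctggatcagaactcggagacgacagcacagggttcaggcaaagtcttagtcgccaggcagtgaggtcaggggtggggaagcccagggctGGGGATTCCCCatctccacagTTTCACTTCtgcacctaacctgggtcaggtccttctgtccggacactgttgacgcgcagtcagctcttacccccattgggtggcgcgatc
H2-D1 (chr17:35262894-35263093, plus strand): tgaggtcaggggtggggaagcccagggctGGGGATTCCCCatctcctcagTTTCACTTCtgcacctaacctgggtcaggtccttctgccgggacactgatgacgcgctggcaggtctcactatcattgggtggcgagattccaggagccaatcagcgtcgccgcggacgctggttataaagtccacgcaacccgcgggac
H2-Q7 (chr17:35438955-35439154, plus strand): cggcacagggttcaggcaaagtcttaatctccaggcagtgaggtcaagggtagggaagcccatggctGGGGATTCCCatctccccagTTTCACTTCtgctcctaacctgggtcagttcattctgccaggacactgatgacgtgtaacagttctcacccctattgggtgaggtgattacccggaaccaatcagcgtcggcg
B2m (chr2:122147487-122147686, plus strand): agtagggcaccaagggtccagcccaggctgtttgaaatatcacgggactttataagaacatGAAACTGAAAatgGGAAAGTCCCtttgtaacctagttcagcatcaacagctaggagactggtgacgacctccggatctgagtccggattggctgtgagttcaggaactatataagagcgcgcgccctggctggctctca
The 3 heavy chains share the order of the motifs. The first base of the NF-κB consensus lay 111 bases upstream of the start in H2-K1, 171 in H2-D1, 133 in H2-Q7 and 126 in B2m. Of the 9 members in the promoter table, these 4 held the NF-κB consensus within 250 bases upstream, against 3.9% of all 32851 promoters searched the same way. GAANNGAAA was found in the 3 heavy chains and in 6.31% of all promoters, and the form with the added A in B2m and in 2.98%. The letters GGAAGT, a core that PU.1 binds, and TTGCNNAA, a form that C/EBP factors bind, were in none of the 9 windows, against 19.7% and 9.56% of all promoters. The 3 heavy-chain stretches are much alike in sequence, and the Tap1 and Psmb9 windows overlap on opposite strands. The 9 windows thus cannot be counted as separate promoters. A match is a string of letters and not a shown binding site, and no match says only that these letters were absent from the window.

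Values are RPKM, reads per kilobase of transcript per mega-read of library, as the authors deposited them. Implied depth was 10.8 to 14.0 M (mega) reads in the BV2 libraries, 28.8 M in Q175 and 34.3 M in Q7 microglia, and 47.8 M in Q175 and 30.3 M in Q7 BMDM. Labelled cell types were checked against marker lists. The summed RPKM of 9 microglia markers was 3696 to 4459 in microglia and 72.8 to 102 in BMDM. In BV2 cells it was 25.5 to 118, and P2ry12, which defines resting microglia, was at 0 to 0.061 RPKM there, so this marker was at or near 0 in the line. Granulocyte markers were present in the primary libraries, with a summed RPKM of 581 in Q175 and 1820.3 in Q7 microglia and of 216 in Q175 and 428 in Q7 BMDM. In BV2 cells that sum was 219 in the Nmu library of 24 h, with Lcn2 alone at 218.6 RPKM, and 1.13 to 6.16 in the other 5 libraries. Microglia markers summed to 25.5 and 36.7 RPKM in Nmu cells, against 118 and 37.7 in Nwt cells and 107 and 35.8 in pCDH cells. The 7 macrophage markers, 6 of which reached 1 RPKM in each BV2 library, summed to 1377 and 1791 RPKM in Nmu cells, above the 698 to 1025 of the 4 controls. Lyz2 made up most of that sum, with 1070 and 1398 RPKM in Nmu cells, against 470 to 622 in the controls. At 24 h Csf1r, Itgam, Cd68 and Mrc1 were lower in Nmu cells than in both controls, and Emr1 was higher. At the second time Csf1r, Itgam, Cd68 and Emr1 were higher and Mrc1 was lower. The 5 endothelial markers, 1 of which reached 1 RPKM, summed to 8.58 and 12.2 RPKM in Nmu cells, below the 18.9 to 44.4 of the controls. Their part in the results below was not tested. In such bulk samples, fewer cells of a type and less RNA per cell cannot be told apart.

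**Figure D1:**
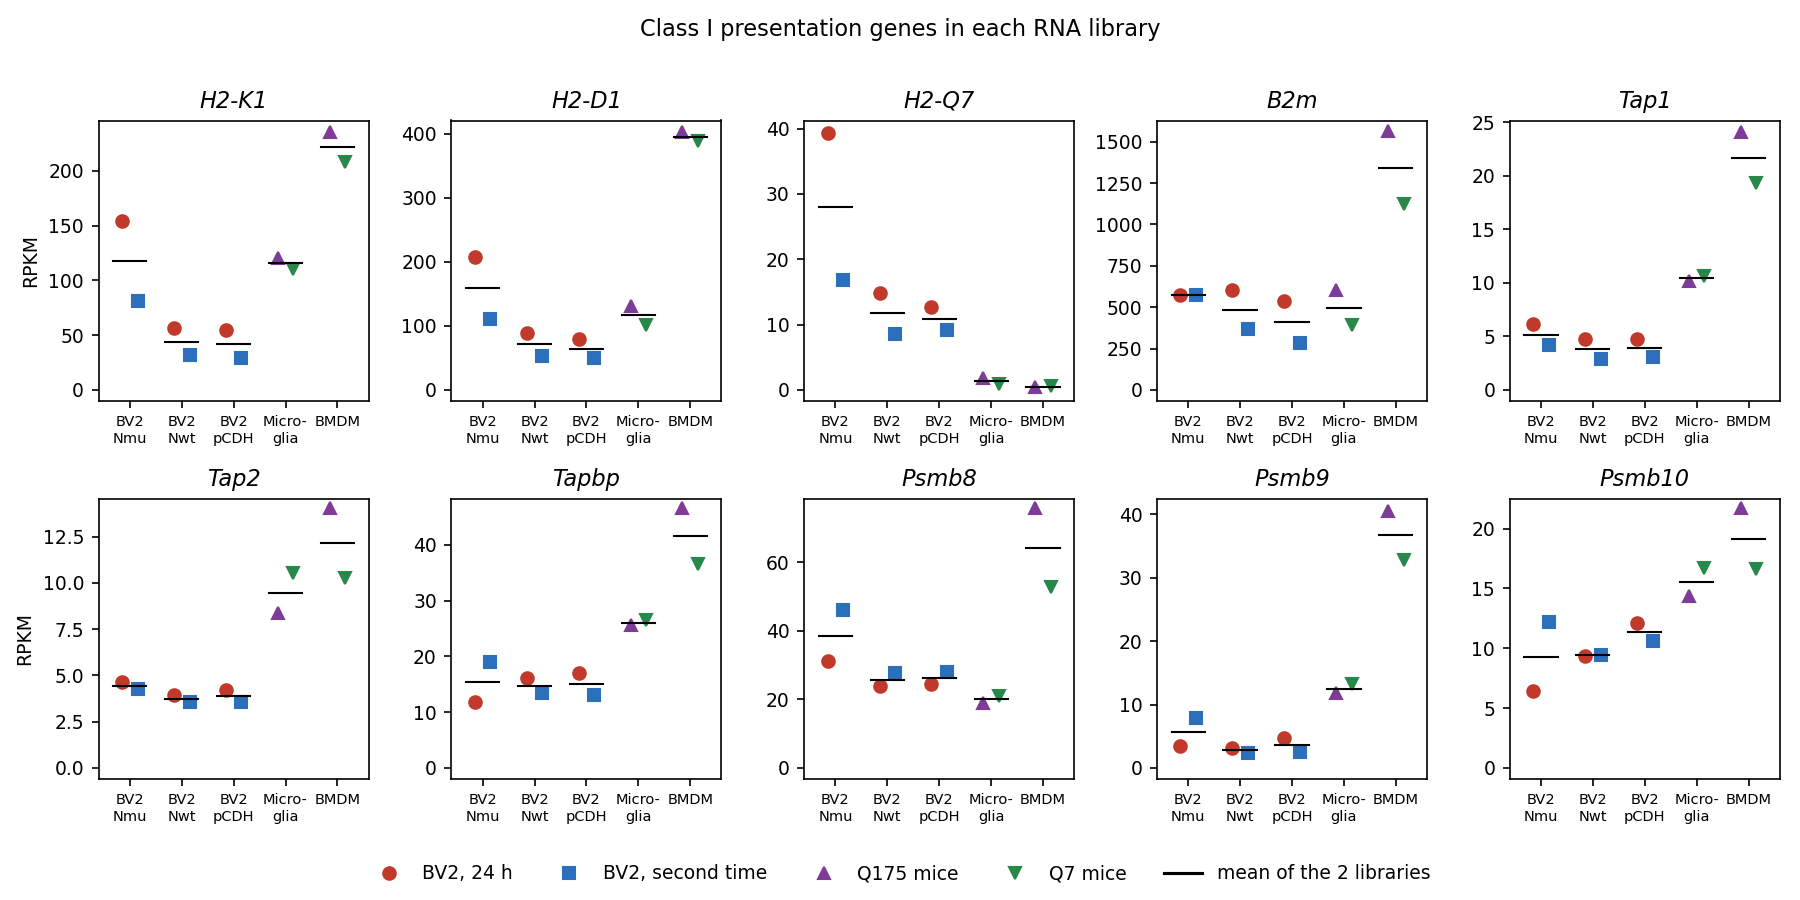
RPKM of each gene (vertical axis, linear and on its own scale in each panel) in each of the 10 RNA libraries, with the 3 BV2 constructs, microglia and BMDM along the horizontal axis. Points are single libraries and lines are means of 2 libraries; H2-K1, H2-D1 and H2-Q7 are higher in both Nmu libraries than in the 4 control libraries, and H2-Q7 is below 2 RPKM in every primary library.

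The first comparison asked whether the mutant fragment goes with another level of the class I route in BV2 cells. The 2 classical heavy chains, which present peptides to CD8+ T cells, rose with Nmu against both control constructs. H2-K1 had 154 RPKM at 24 h and 81.0 at the second time in Nmu cells, against 56.8 and 31.7 in Nwt cells and 54.5 and 29.4 in pCDH cells. H2-D1 had 207 and 111 RPKM in Nmu cells, against 89.4 and 53.7 in Nwt cells and 79.0 and 49.2 in pCDH cells. For both genes each Nmu library lay above all 4 control libraries, even when the lower time of Nmu is set against the higher time of the controls. The fitted difference on the log2(RPKM + 1) scale was 1.42 for H2-K1 (SE 0.14, adjusted p = 0.0293, limma) and 1.19 for H2-D1 (SE 0.14, adjusted p = 0.0420, limma), which is 2.67-fold and 2.29-fold higher with Nmu. These 2 calls among 10 members stand beside 0.622% of the 9961 genes tested that were called higher and 0.301% called lower. Both calls rest on the fit with time as a term: without it the adjusted p was 0.256 for H2-K1 and 0.281 for H2-D1 (limma). Both heavy chains also differed between times. Without the Nmu library of 24 h 8 members were called, and without that of the second time 6, in fits whose spread rests on the 4 controls and that called 3385 and 4892 of all genes. Without any 1 of the control libraries, 2 or 3 were called, H2-K1 and H2-D1 each time. After quantile normalization H2-K1 (1.35) was called and H2-D1 (1.13, adjusted p = 0.0621, limma) was not, and of all genes called 81.2% were higher with Nmu, against 67.4% as deposited.

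H2-Q7 encodes a nonclassical heavy chain (Qa-2). It had 39.3 and 16.9 RPKM in Nmu cells, against 14.9 and 8.50 in Nwt cells and 12.6 and 9.10 in pCDH cells. Its Nmu libraries also lay above all controls, and its difference of 1.16 did not pass the threshold (SE 0.20, adjusted p = 0.0712, limma). B2m, the partner of every heavy chain, did not follow them at 24 h. It had 575 and 574 RPKM in Nmu cells, against 602 and 367 in Nwt cells and 538 and 281 in pCDH cells. The Nmu value lay inside the control range at 24 h and above both controls at the second time, and the difference was 0.43 (SE 0.23, adjusted p = 0.341, limma).

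None of the 3 transport and loading genes passed the test. Tap1, a subunit of the transporter, had 6.13 and 4.20 RPKM in Nmu cells, against 4.74 and 2.85 in Nwt cells and 4.73 and 3.05 in pCDH cells, a difference of 0.36 (SE 0.14, adjusted p = 0.229, limma). Tap2, its other subunit, differed by 0.18 and Tapbp by 0.01. Tapbp was below both controls at 24 h and above both at the second time: 11.7 and 19.0 RPKM in Nmu cells, against 16.1 and 13.4 in Nwt cells and 17.0 and 13.1 in pCDH cells.

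The immunoproteasome subunits, which cut peptides with ends that fit class I, were not called either. Psmb8 had 31.2 and 45.9 RPKM in Nmu cells, against 23.9 and 27.6 in Nwt cells and 24.4 and 27.9 in pCDH cells. Its Nmu libraries lay above all 4 controls, with a difference of 0.53 (SE 0.16, adjusted p = 0.155, limma). Psmb9 had 3.47 and 7.80 RPKM in Nmu cells, against 3.14 and 2.37 in Nwt cells and 4.73 and 2.59 in pCDH cells, so only the second time stood above all controls. Psmb10 had 6.42 and 12.2 RPKM in Nmu cells, against 9.34 and 9.46 in Nwt cells and 12.1 and 10.6 in pCDH cells, and its Nmu values overlapped the controls.

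Over the 10 members the median difference of Nmu against both controls was 0.48, and 9 of the 10 were above 0, beside a median of -0.0037 over all genes tested. The Nmu libraries did not overlap the 4 controls and were higher for 5 members (H2-K1, H2-D1, H2-Q7, Tap2 and Psmb8), against 12.4% of all genes. The members were chosen with earlier results known, so this is a description and not a test. Against each control alone no member was called. The median was 0.49 against pCDH, where 0.241% of all genes were called higher and 0.0301% lower, and 0.46 against Nwt, where 0.241% were called higher and 0.0201% lower. The adjusted p of H2-K1 was 0.0581 against pCDH and 0.0654 against Nwt (limma), and 4 members had an unadjusted p under 0.05 against pCDH, where 7.94% of all genes were higher at that level. These comparisons share the Nmu libraries. With each library left out in turn, the members' median ran from 0.22 to 0.80 against pCDH and from 0.25 to 0.71 against Nwt.

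With the wild-type fragment the heavy chains stood near their level with the empty vector. Between Nwt and pCDH no member and none of the 9961 genes was called (0.0% in each direction, limma), and 0.11% of all genes were higher and 0.0803% lower at an unadjusted p under 0.05. H2-K1 differed by 0.08, H2-D1 by 0.15 and H2-Q7 by 0.07, each smaller than its SE, and the median of the members was -0.02. Psmb10 was the 1 member whose libraries did not overlap, lower with Nwt, where 4.64% of all genes were lower without overlap.

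**Figure D2:**
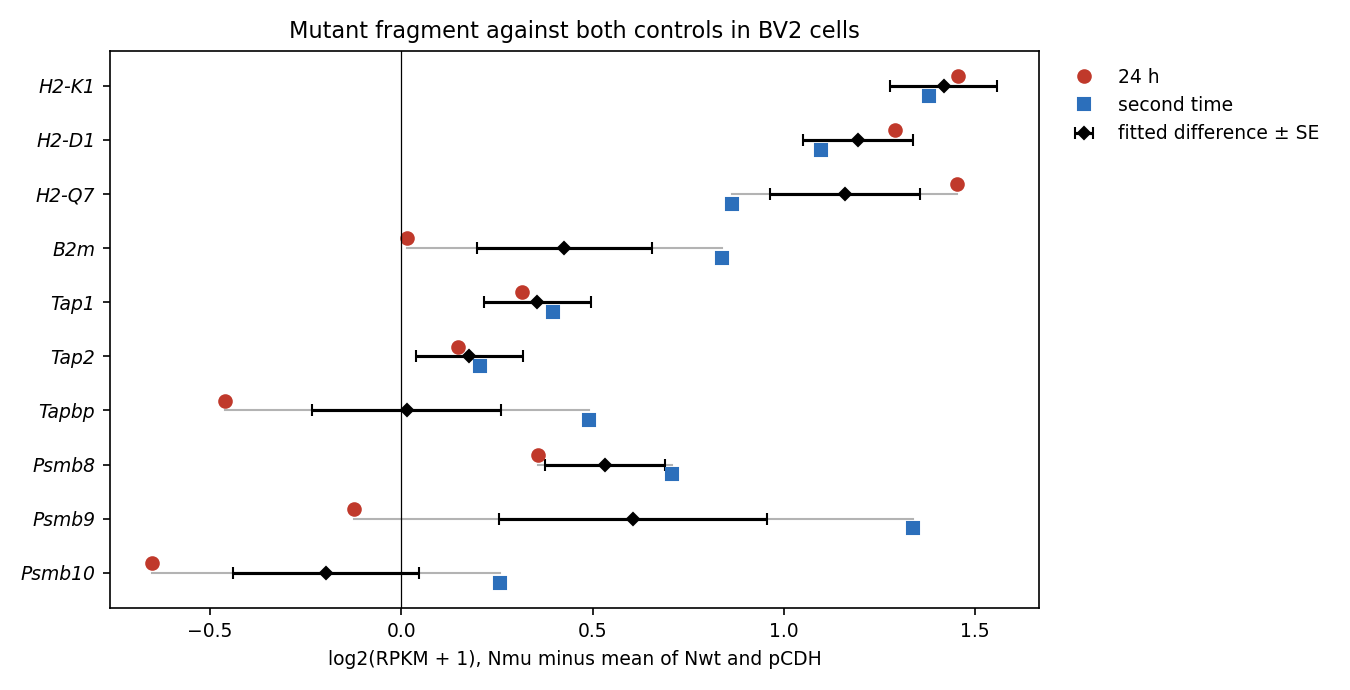
Difference in log2(RPKM + 1) between Nmu and the mean of Nwt and pCDH (horizontal axis) for each gene, at 24 h (circles), at the second time (squares) and as fitted by limma (diamonds, bars are 1 SE). The 3 heavy chains sit to the right at both times, from 0.87 to 1.46, while Tapbp, Psmb9 and Psmb10 lie on both sides of 0.

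Among 22 related class I genes, 20 passed the filter on low values in BV2 cells. Of these, 18 were higher and 2 lower with Nmu, with a median difference of 0.97, and 1 was called, against 0.622% of all genes. It was H2-Q5, with 22.1 and 10.6 RPKM in Nmu cells, against 9.48 and 4.02 in Nwt cells and 7.63 and 3.88 in pCDH cells, a difference of 1.26 (SE 0.15, adjusted p = 0.0400, limma). Most of these genes are near copies of one another, so they cannot be counted as separate support. No source used here gives the way in which reads that fit several of them were counted. The entry H2-L overlaps H2-D1 on chromosome 17 (mm9, 35400068 to 35403675 within 35400039 to 35404442) and stood at 97.9 to 116% of the RPKM of H2-D1 in all 10 libraries. H2-Q9 overlaps H2-Q7 in the same way.

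For some heavy-chain entries, the RPKM as a share of that of H2-D1 did not overlap between the line and the primary cells. H2-Q7 was at 15.2 to 19.0% of H2-D1 in the 6 BV2 libraries, at 0.836 to 1.38% in microglia and at 0.114 to 0.145% in BMDM. H2-Q1 was at 9.59 to 14.4% in BV2 cells and at no more than 0.0138% in any primary library, and H2-Q10, known in mice as a secreted liver heavy chain, was at 10.9 to 16.9% in BV2 cells and at no more than 0.137% in any primary library. H2-L and H2-T23 overlapped: H2-T23 was at 16.9 to 25.4% in BV2 cells, 21.2 to 28.3% in microglia and 21.9 to 40.1% in BMDM. The narrow range in BV2 cells held across constructs although H2-D1 itself spanned 49.2 to 207 RPKM. Whether these are transcripts of their own or reads shared with H2-K1 and H2-D1 was not tested, so the RPKM of H2-Q7 and of its relatives in BV2 cells is uncertain. How reads that fit both H2-K1 and H2-D1 were counted is likewise not given, so their 2 calls with Nmu cannot be counted as separate.

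**Figure D3:**
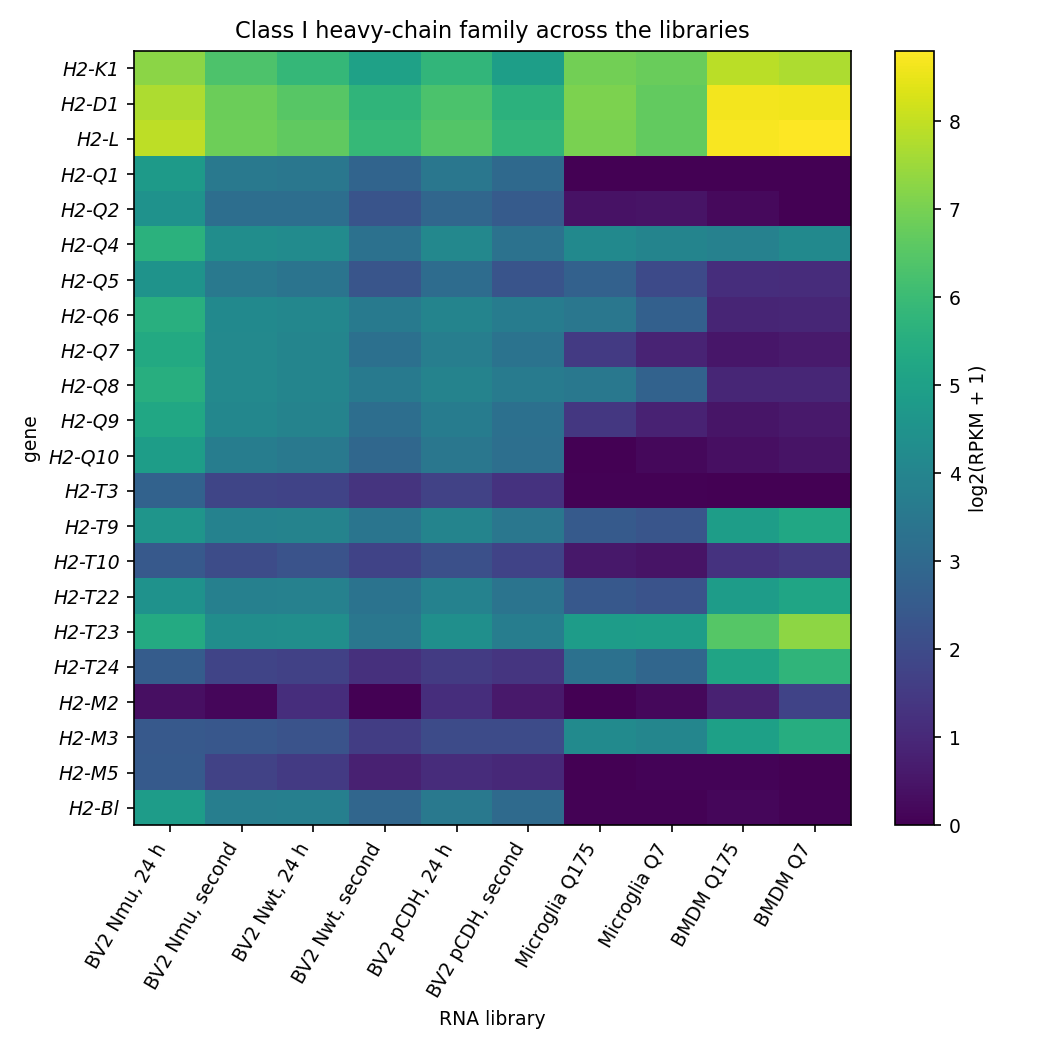
log2(RPKM + 1), as colour, of the class I heavy-chain family (rows) in the 10 RNA libraries (columns), with Nmu left of Nwt and pCDH and with Q175 left of Q7. H2-Q1, H2-Q7, H2-Q10 and H2-Bl have colour in all 6 BV2 libraries and almost none in the 4 primary libraries, where H2-K1, H2-D1 and H2-T23 are bright.

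Other genes of the route were not called with Nmu. None of 7 further loading genes (chaperones and trimming enzymes such as Calr, Pdia3 and Erap1) was called, with 2 higher and 5 lower and a median of -0.13. None of 7 proteasome partners was called, and their median was 0.39. Psmb5, the constitutive counterpart of Psmb8, had 82.7 and 63.7 RPKM in Nmu cells, against 39.9 and 58.6 in Nwt cells and 42.7 and 67.2 in pCDH cells. Of 13 interferon-stimulated genes only 4 passed the filter on low values; none was called and their median was -0.07. Their summed RPKM was 48.2 and 49.8 in Nmu cells, against 68.5 and 33.0 in Nwt cells and 67.9 and 33.7 in pCDH cells, so Nmu was below both controls at 24 h and above both at the second time. Bst2 made up most of the sum, with 34.9 and 41.7 RPKM in Nmu cells, against 59.9 and 25.9 in Nwt cells and 58.8 and 26.8 in pCDH cells. Without Bst2, a sum taken after the values were seen, the other 12 genes gave 13.3 and 8.07 RPKM in Nmu cells, against 8.62 and 7.12 in Nwt cells and 9.13 and 6.90 in pCDH cells, so Nmu was above both controls at each time. At 24 h Isg15 had 2.33 RPKM in Nmu cells, against 0.505 in Nwt and 0.359 in pCDH cells. Rsad2 had 2.82 RPKM in Nmu cells, against 0.563 in Nwt and 0.286 in pCDH cells. Both genes were picked after the values were seen. Ifit1, Ifit2, Ifit3 and Irgm1 also lay above both controls at 24 h. Usp18, Irf7, Oasl2, Mx1, Gbp2, Ifi47 and Bst2 lay below both controls at that time. Of the 13, 3 to 5 reached 1 RPKM in a BV2 library.

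None of the 15 regulators tested was called with Nmu, and their median was 0.02. By fitted difference 8 were higher and 7 lower. Some regulators are given here, chosen after their values were seen. Nfkb1, which encodes the NF-κB subunit p50, had 12.1 and 11.8 RPKM in Nmu cells, against 5.07 and 6.37 in Nwt cells and 5.01 and 6.18 in pCDH cells, a difference of 0.97 (SE 0.15, adjusted p = 0.0655, limma). Rela, which encodes its partner p65, had 11.5 and 10.1 RPKM in Nmu cells, against 5.80 and 6.97 in Nwt cells and 5.47 and 6.41 in pCDH cells, a difference of 0.72 (SE 0.16, adjusted p = 0.101, limma). Both genes were higher in each Nmu library than in all 4 controls, as were 12.4% of all genes. Nlrc5, the transactivator of class I genes, had 7.16 and 3.87 RPKM in Nmu cells, against 3.78 and 3.02 in Nwt cells and 4.11 and 3.11 in pCDH cells, and overlapped the controls (0.49, adjusted p = 0.192, limma). Ifngr1, a subunit of the interferon-gamma receptor, had 3.66 and 6.80 RPKM in Nmu cells, against 14.6 and 8.76 in Nwt cells and 13.4 and 8.13 in pCDH cells, a difference of -0.98 (SE 0.33, adjusted p = 0.188, limma). Irf8, a myeloid interferon regulatory factor, had 8.38 and 13.6 RPKM in Nmu cells, against 14.5 and 14.7 in Nwt cells and 16.2 and 13.8 in pCDH cells (-0.43, adjusted p = 0.315, limma). Ifngr1 and Irf8 were lower in each Nmu library than in all 4 controls, as were 14.9% of all genes.

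At the second time the classical heavy chains fell against 24 h. Relative to 24 h the second time was lower for H2-K1 by a fitted difference of -0.87 (SE 0.13, adjusted p = 0.0428, limma) and for H2-D1 by -0.76 (SE 0.14, adjusted p = 0.0455, limma), where 0.873% of all genes were called lower and 4.58% higher. Both calls were lost when any 1 of the 4 control libraries was left out, with adjusted p-values of 0.129 to 0.258 (limma). Which of the 2 times came first is not settled by the files. H2-Q7 had a difference of -0.78 (adjusted p = 0.0684, limma) and Tap1 of -0.51 (adjusted p = 0.0813, limma), and Tap1 was the 1 member with no overlap between times, where 8.82% of all genes were lower without overlap. Of the 20 related class I genes tested, 4 were called lower, among them H2-Q4 (-1.02), H2-Q5 (-0.96) and H2-T23 (-0.87). In the other direction, Pomp, which helps to assemble proteasomes, was called higher by 1.00, the chaperone Calr by 0.85 and Pdia3, a partner of tapasin, by 0.77. The median of the members was -0.32 and that of all genes 0.11. Of all genes called, 84.0% were higher at the second time as deposited and 66.4% after quantile normalization.

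In the primary cells microglia were set against BMDM. Microglia had less of most class I genes, and the reads of the 2 cell types were spread over genes in different ways: the median difference over all 10252 genes tested was -0.57. H2-D1 had 132 RPKM in Q175 and 101.4 in Q7 microglia, against 403 and 388 in BMDM of the same genotypes. B2m had 604 and 391 RPKM in microglia, against 1563 and 1122 in BMDM. Psmb8 had 19.0 and 21.0 RPKM in microglia, against 75.8 and 52.7 in BMDM, and Psmb9 had 11.8 and 13.3 in microglia, against 40.5 and 32.7 in BMDM. None of these 4 genes overlapped between the cell types, and 62.0% of all genes were lower in microglia without overlap. Their fitted differences were -1.77, -1.44, -1.61 and -1.47 in that order, each with an SE of 0.25.

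Of the 9 members tested, 7 were called lower in microglia than in BMDM (adjusted p no higher than 0.0150, limma), where 51.8% of all genes were called lower and 16.8% higher. The shared fit had 1 residual degree of freedom and gave every gene the same SE. H2-K1 differed by -0.93, Tap1 by -0.98 and Tapbp by -0.65, while Tap2 at -0.32 and Psmb10 at -0.28 were not called. H2-Q7 did not pass the filter on low values. Some of these calls depended on the scale. After quantile normalization, which gives all libraries the same distribution, H2-D1 was at -1.005, B2m at -0.82, Psmb8 at -0.52 and Psmb9 at -0.45, all still called lower. H2-K1 was then at -0.11 and Tap1 at -0.02 and neither was called, while Tap2 (0.53), Tapbp (0.45) and Psmb10 (0.70) were called higher in microglia. Of all genes called, 24.5% were higher in microglia as deposited and 50.3% after that normalization. With no filter on low values 0 members and 0 genes were called.

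Interferon-stimulated genes, which share inducers with the class I route, were lower in microglia than in BMDM. All 13 were called lower, with a median of -3.10, and had the same sign after quantile normalization; Ifi47 had 0.610 RPKM on average in microglia and 32.8 in BMDM, a difference of -4.39, and Oasl2 had 2.19 and 58.9 in the same order, a difference of -4.32. Their summed RPKM was 54.5 to 73.5 in microglia and 556 to 589 in BMDM. Of 16 regulators, 10 were called lower and 3 called higher in microglia, near the shares of all genes called (51.8% lower and 16.8% higher). Nlrc5, named after its values were seen, had 3.08 and 1.60 RPKM in microglia, against 10.1 and 13.1 in BMDM. All 7 proteasome partners were lower, with Psmb5 at -2.06, Psmb6 at -1.54 and Psmb7 at -1.61; after quantile normalization these 3 were at -1.36, -0.50 and -0.58, all called lower.

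The 4 BV2 control libraries were set beside the primary cells for level. Against microglia, 7 of 10 members were called lower in BV2 cells and H2-Q7 higher (adjusted p no higher than 0.0196, limma), where 29.3% of 11169 genes were called lower and 43.3% higher. Psmb9 averaged 3.21 ± 1.07 RPKM in BV2 controls (SD, n = 4) and 12.5 ± 1.07 in microglia (SD, n = 2), and H2-K1 averaged 43.1 ± 14.6 and 115 ± 7.57 in the same order. The fitted differences were -1.71 and -1.46. B2m at -0.18 and Psmb8 at 0.36 were not called. H2-D1 lost its call with no filter (adjusted p = 0.0787, limma) and without the Q175 microglia library (adjusted p = 0.153, limma), and Psmb10 without the Q7 microglia library (adjusted p = 0.126, limma). Against BMDM, 9 members were lower and H2-Q7 higher in BV2 cells, where 42.4% of all genes were called lower and 24.5% higher. They ran from -3.18 for Psmb9 and -2.57 for H2-D1 to -0.82 for Psmb10, and the medians of all genes were 0.27 against microglia and -0.27 against BMDM. After quantile normalization B2m (-0.87) and Psmb10 (-0.37) were no longer called against BMDM, and the members' median against microglia was -1.51. Of all genes called, 59.7% were higher in BV2 cells than in microglia and 36.6% higher than in BMDM, against 49.8% and 48.1% after quantile normalization. Cell line against primary cell cannot be told apart here from depth and preparation.

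In order of deposited RPKM, BMDM stood above microglia and microglia above BV2 controls for H2-K1, H2-D1, Tap1, Tapbp and Psmb9, with no overlap between neighbours. Part of this order depended on the scale: after quantile normalization Tapbp was called higher in microglia than in BMDM, and H2-K1 and Tap1 were not called between them. The share of all genes lower without overlap was 62.0% in microglia against BMDM and 33.2% in BV2 controls against microglia. For Tap2 and Psmb10 the microglia libraries overlapped with BMDM, and for B2m with the BV2 controls. Psmb8 ran in another order, with BMDM highest, BV2 controls next (23.9 to 27.9 RPKM) and microglia lowest (19.0 to 21.0 RPKM), though its difference between BV2 controls and microglia was not called (adjusted p = 0.0799, limma) and was -0.32 after quantile normalization. H2-Q7 was highest in BV2 cells. Across the 10 libraries the Pearson r of log2(RPKM + 1) with the mean of the other members was -0.76 for H2-Q7 and 0.64 to 0.95 for the rest, a description of libraries that share cell types and not a test.

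The ratios of immunoproteasome to constitutive subunits kept the BV2 libraries apart from the primary libraries. Both sides of each ratio are RPKM and so are scaled per length. Psmb8 over Psmb5 was 0.378 and 0.721 in Nmu cells, 0.598 and 0.471 in Nwt cells, 0.572 and 0.415 in pCDH cells, 6.49 and 6.17 in Q175 and Q7 microglia, and 4.60 and 3.23 in Q175 and Q7 BMDM. Psmb9 over Psmb6 was 0.0240 to 0.0719 in BV2 cells, 0.823 to 0.969 in microglia and 0.812 to 0.895 in BMDM. Psmb10 over Psmb7 was 0.0869 to 0.264 in BV2 cells, 1.21 to 1.37 in microglia and 0.455 to 0.528 in BMDM. No BV2 library overlapped a primary library in any of the 3 ratios, and the Nmu libraries lay on both sides of the controls in the first. Of the first pair, Psmb5 was 39.9 to 82.7 RPKM in BV2 cells, 2.93 and 3.40 in microglia and 16.5 and 16.3 in BMDM, while Psmb8 spanned 19.0 to 75.8 RPKM over all libraries. Against microglia, BV2 controls had more Psmb5 (3.64), Psmb6 (2.74) and Psmb7 (2.21), all called (adjusted p no higher than 0.000102, limma) and called also after quantile normalization.

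**Figure D4:**
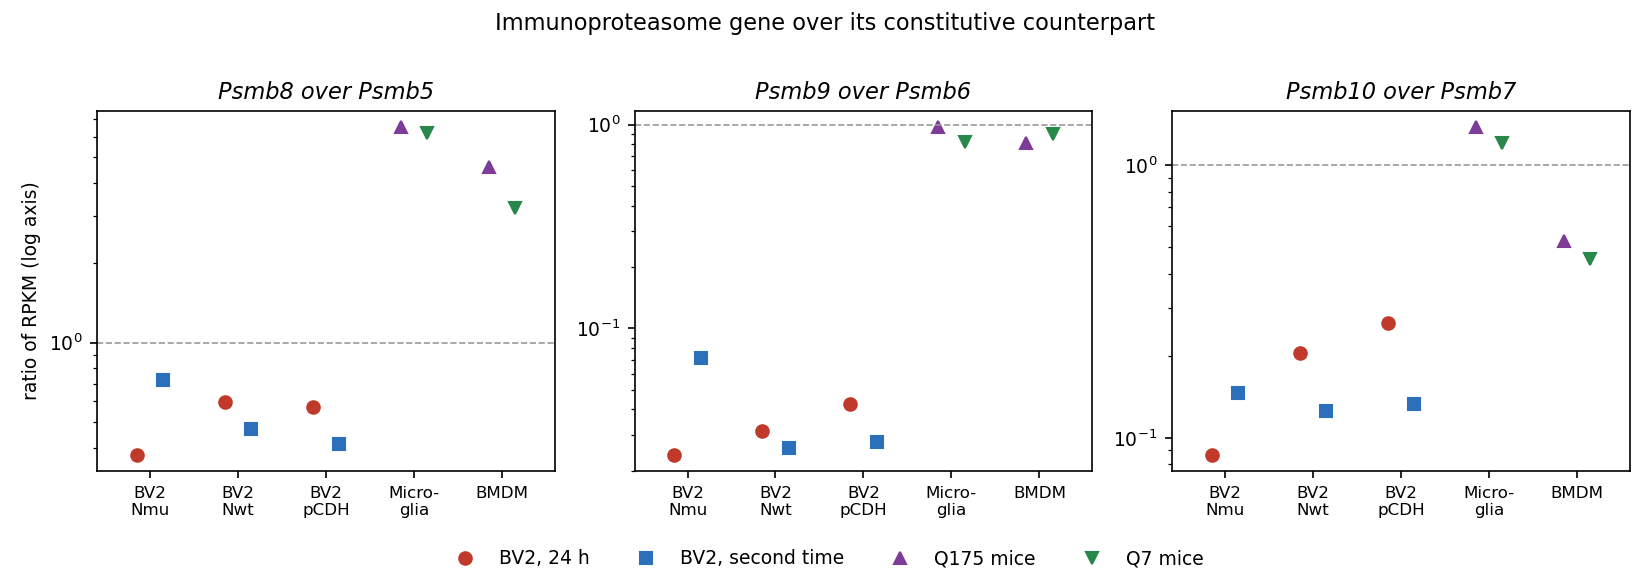
Ratio of the RPKM of each immunoproteasome gene to that of its constitutive counterpart (log axis, dashed line at 1) in each of the 10 RNA libraries, by construct or cell type. All 6 BV2 libraries lie below 1 in each panel and below all 4 primary libraries.

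The genotype comparison asked whether the long glutamine tract in the HTT alleles of the mice goes with class I expression. No member was called with Q175 against Q7 (limma), where 0.0195% of all genes were called higher and 0.117% lower. B2m had 604 RPKM in Q175 and 391 in Q7 microglia, and 1563 in Q175 and 1122 in Q7 BMDM. It was higher with Q175 in both cell types, with a fitted difference of 0.55 (unadjusted p = 0.0264, adjusted p = 1.00, limma), and it was the 1 member at that level, where 1.0% of all genes were. H2-K1 had 121 RPKM in Q175 and 110.1 in Q7 microglia, and 236 in Q175 and 208 in Q7 BMDM. H2-Q7, not tested, had 1.82 RPKM in Q175 and 0.848 in Q7 microglia, and 0.460 in Q175 and 0.562 in Q7 BMDM.

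Within a cell type each side is 1 library and there was no test. In microglia 3 of 9 members were higher with Q175, with a median of -0.06, where 33.2% of all genes were higher. In BMDM all 9 were higher, with a median of 0.34, where 71.1% of all genes were higher and the median of all genes was 0.18. The Q175 BMDM library was also the deepest. The summed RPKM of the granulocyte markers was lower with Q175 in both cell types. In BMDM, Elane had 4.61 RPKM in Q175 and 3.51 in Q7, Mpo 3.54 and 2.08, and Retnlg 1.11 and 0.659. The other granulocyte markers were lower with Q175 in BMDM, and all of them were lower in microglia. Interferon-stimulated genes summed to 73.5 RPKM in Q175 and 54.5 in Q7 microglia and to 589 in Q175 and 556 in Q7 BMDM. The BMDM sum leaned on Bst2, with 129 RPKM in Q175 and 76.3 in Q7. In BMDM Ifit2, Ifit3, Mx1, Irf7, Gbp2, Rsad2 and Irgm1 were lower with Q175, and the other interferon-stimulated genes were higher. In microglia Gbp2, Ifi47 and Bst2 were lower with Q175 and the others higher. The part of the granulocyte and interferon-stimulated genes in the members' differences was not tested.

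The ChIP-seq peaks ask which of the members' promoters carry the mark and the factors in BV2 cells. Peaks were called per library, with no replicate, and no test was made. H3K4me2, a mark of active promoters and enhancers, lay within 1 kb of 9 of 10 starts in all 3 constructs, against 90.2% of the starts of 9961 genes tested in BV2 cells. H2-Q7 was the exception, with no H3K4me2 peak within 20 kb in any construct, where 96.0% of all starts had one in all 3. The mapping of ChIP-seq reads that fit several near-copy heavy-chain genes was not examined. Peaks present or absent at H2-Q7, for the mark or for the factors below, are thus uncertain. Of 25 regions with H3K4me2 near the members, 19 (76%) were found in all 3 constructs, near the shares of all H3K4me2 peaks that overlapped a peak in both other constructs, 76.9% in Nmu, 82.3% in Nwt and 80.1% in pCDH cells.

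PU.1, the factor that sets myeloid identity, had a peak within 20 kb of all 10 members in all 3 constructs, against 79.4% of all starts. Tap1, Tap2, Psmb8 and Psmb9 are not separate here, because they lie near one another and shared a PU.1 peak. Within 1 kb, a window added after the positions were seen, 6 members had one in all 3 constructs, against 22.3% of all starts. These were H2-K1, H2-D1, H2-Q7, B2m, Tapbp and Psmb8. The peak at H2-K1 was centred 77 bases upstream of the mm9 start in Nmu cells (chr17:34137288-34137422), 68 in Nwt cells and 74 in pCDH cells. The peak at H2-D1 was centred 132 bases upstream in Nmu cells (chr17:35399840-35399974), 143 in Nwt cells and 147 in pCDH cells, and that at H2-Q7 124, 135 and 119 upstream in the same order. At Psmb8 it was 165, 161 and 164 bases downstream of the start. The centres at these 4 starts thus differed between constructs by less than the width of a peak, 135 to 147 bases. The motif positions given above count from RefSeq starts of another assembly, and the 2 were not matched.

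B2m had the most PU.1 peaks, 11 within 20 kb in Nmu cells, 6 in Nwt cells and 6 in pCDH cells. They fell into 12 regions on chromosome 2, of which 5 were found in all 3 constructs, 5 in Nmu only, 1 in Nwt only and 1 in Nmu and pCDH. Only B2m among the 9961 starts (0.01%) had 5 or more PU.1 peaks above both controls with Nmu, a count made after its peaks were seen. The excess depended on the window, with 1 peak at 5 kb and 2 at 50 kb. Over the whole files, 19.2% of PU.1 peaks in Nmu cells, 11.6% in Nwt cells and 24.0% in pCDH cells had no overlap in another construct, and peak totals were 64744, 53835 and 71846 in that order.

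C/EBPβ, a factor of myeloid and inflammatory genes, had a peak within 1 kb of 6 members in Nmu cells, 8 in Nwt cells and 1, B2m, in pCDH cells. The shares of all starts were 42.2%, 56.2% and 31.6% in that order. H2-K1, H2-D1, Tapbp, Tap1 and Psmb9 had one with Nmu and Nwt and none with pCDH, where 11.9% of all starts did, and Tap1 and Psmb9 share a peak between their opposed starts. This pattern was picked after it was seen. It ran with the size of the lists, 47893 peaks in Nmu cells, 69522 in Nwt cells and 35964 in pCDH cells, and the part of peak calling was not tested. In RNA at 24 h, H2-K1 had 56.8 RPKM in Nwt and 54.5 in pCDH cells, and H2-D1 had 89.4 in Nwt and 79.0 in pCDH cells. C/EBPα had a peak within 20 kb of 1 member in Nmu cells, 3 in Nwt cells and 6 in pCDH cells. Of all starts, 32.6%, 57.7% and 38.5% had one in that order. Among the 6 in pCDH cells, Tap1, Psmb8 and Psmb9 shared the same peak and are not separate. None of the 15 C/EBPα regions was found in all 3 constructs. Of all C/EBPα peaks, 64.8% in Nmu, 29.9% in Nwt and 50.7% in pCDH cells overlapped a peak in both other constructs.

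**Figure D5:**
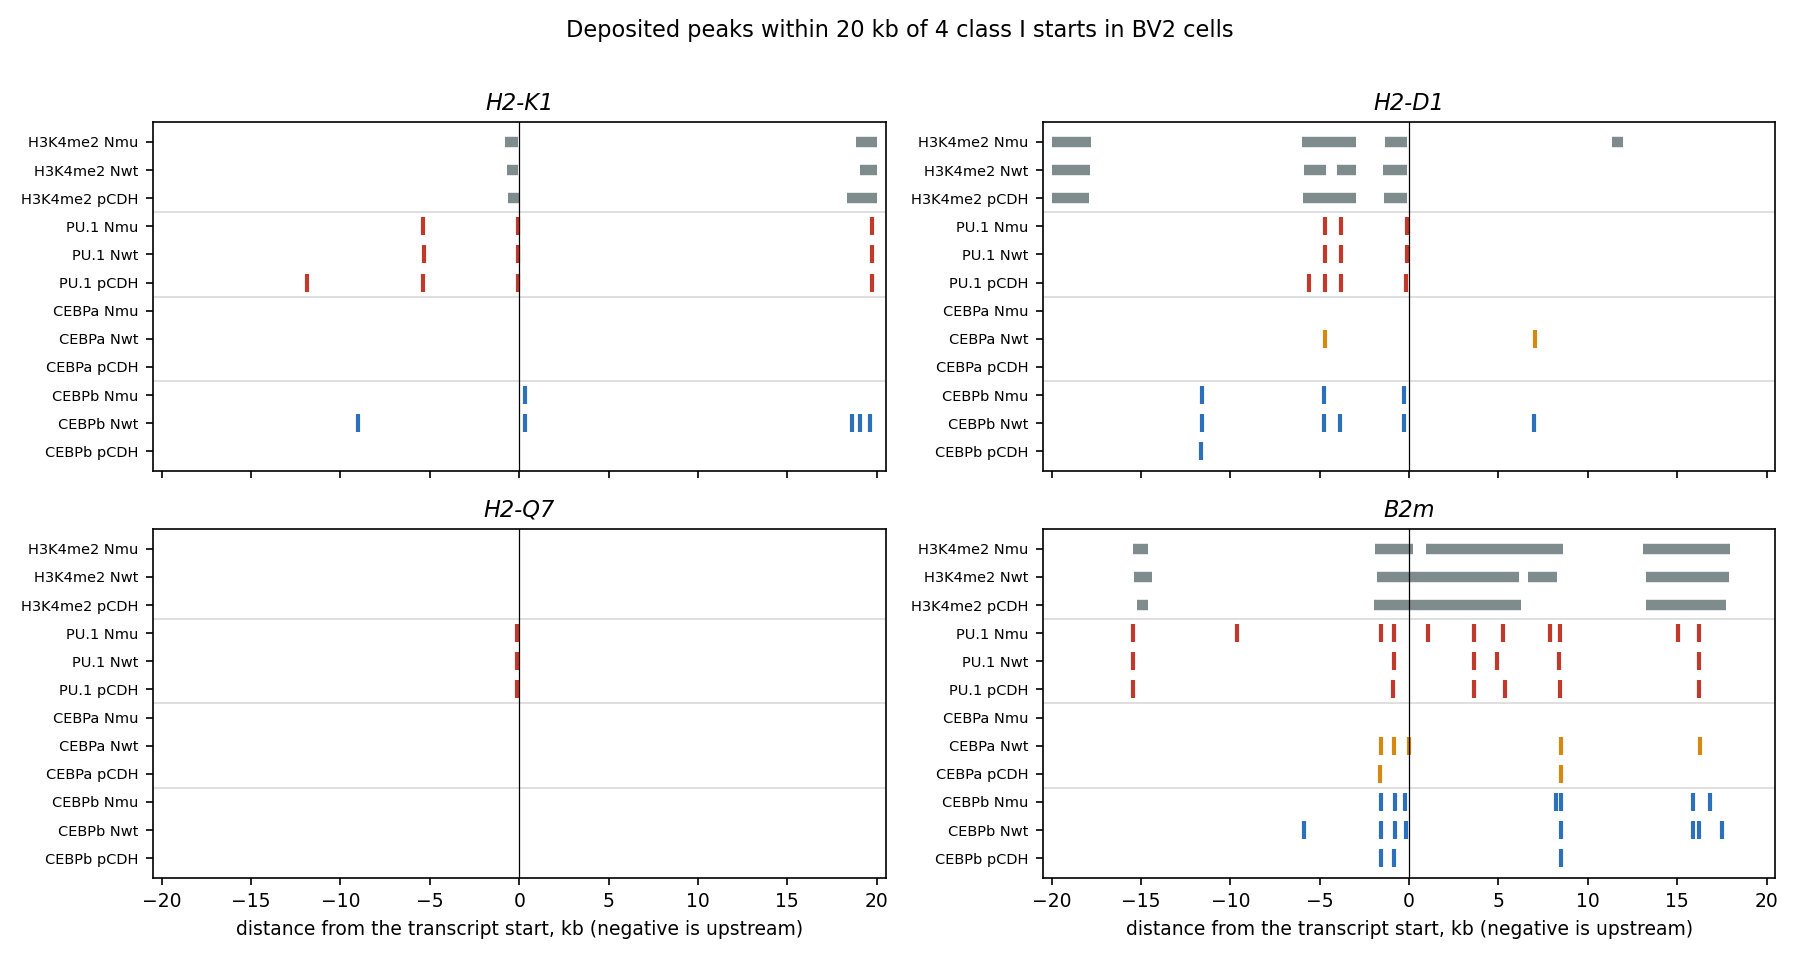
Deposited peaks around 4 starts (horizontal axis, distance from the mm9 transcript start in kb, negative is upstream), with 1 line per antibody and construct and Nmu above Nwt and pCDH. H3K4me2 is drawn as its called width and factor peaks as ticks at their centres; PU.1 ticks stand next to the start of each heavy chain in all 3 constructs, and B2m has 11 in Nmu cells against 6 in each control.

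Genes outside the lists whose pattern was most like the members' were ranked by Pearson r with the mean of the members' standardised log2(RPKM + 1) across the 10 RNA libraries. Of 7463 genes ranked, the 6 highest were Lst1 (r 0.986), Pik3ap1 (0.984), Dctn4 (0.977), 4933426M11Rik (0.973), Fam214b (0.971) and Ubtd1 (0.969). Lst1 had 7.11 and 12.2 RPKM in Nmu cells, against 4.82 and 3.85 in Nwt cells and 6.58 and 2.96 in pCDH cells. It had 10.9 and 14.4 RPKM in Q175 and Q7 microglia and 48.5 and 37.0 in Q175 and Q7 BMDM. These correlations follow the levels of the 3 cell types, over points that share libraries.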

How the data were processed

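Expression values are RPKM as the authors deposited them in 1 table on mm9. Tools named in the submitters' processing notes are Bowtie, edgeR, HOMER and STAR 2.0.3e. The peak files were deposited per library, with a score of 1 for every peak; HOMER called them at 4-fold over an input named after another macrophage source and a p of 1e-04, per the file headers. Transcript length (another deposited column) served to keep, for each symbol, the transcript of highest mean RPKM with 200 bases or more. In low genes, RPKM times length gave whole reads within 0.1 reads for 97.6 to 100% of values, from which depth was implied. Genes at or above 1 RPKM in 2 libraries of a fit were tested with limma 3.58.1 (R 4.3.3) on log2(RPKM + 1), a scale that understates changes of low genes, with Benjamini-Hochberg adjustment over all genes and a threshold of 0.05. The BV2 fit had construct and time as terms over 6 libraries (2 residual degrees of freedom), so times stand in for replicates. The primary fit had genotype and cell type over 4 libraries (1 residual degree of freedom), and the cell-type fit took 8 libraries. The labels pair libraries by time; second-minus-24 h differences correlated across genes at 0.330 for Nmu with Nwt, 0.217 for Nmu with pCDH and 0.895 for Nwt with pCDH, so time is a block in the BV2 fit.

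The members and all gene lists were chosen with earlier results of these data known. All members are named; other listed genes are named where called, up to 6 per comparison by size, with Psmb5, Psmb6 and Psmb7 always and exceptions marked. Peaks count within 20 kb of the mm9 start where they overlap the window. Sequences are from RefSeq (GRCm38.p6); 9 members have an entry in that table. Alternatives were another pseudocount (0.25, 5), no filter, quantile normalization, the longest transcript, no time term, other windows and overlaps, and each library left out.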

Additional observations from a re-analysis of the deposited data

Results flagged for a closer look

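Some members had construct or genotype effects of opposite sign in 2 settings with every library, and none of these differences was tested. For Nmu against the mean of Nwt and pCDH, the log2(RPKM + 1) effect at the second time exceeded that at 24 h by 1.46 for Psmb9 (1.34 against -0.12), by 0.95 for Tapbp (0.49 against -0.46) and by 0.91 for Psmb10 (0.26 against -0.65). For Q175 against Q7, the effect in microglia minus that in BMDM was -0.72 for Tap2 (-0.30 against 0.42), -0.65 for Psmb8 (-0.13 against 0.52) and -0.57 for Psmb10 (-0.20 against 0.37). It was -0.46 for Psmb9, -0.38 for Tapbp and -0.36 for Tap1, with the microglia effect below 0 and the BMDM effect above 0 in each. Each effect rests on 1 Q175 and 1 Q7 library, or on 1 Nmu library and 2 control libraries.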

How the results depend on the processing

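The numbers of libraries limit most results, and Psmb9 in BV2 cells rests on few reads. The signs of the differences of H2-K1 and H2-D1 between Nmu and both controls, and between times, were kept in every alternative run. The count of 2 members called with Nmu against both controls was 1 with a pseudocount of 0.25, 1 after quantile normalization, 0 with no filter and 0 without the time term (no replicate block). The count of 2 between times was 0 with a pseudocount of 0.25, 0 with no filter and 1 after quantile normalization. The 7 called in microglia against BMDM were 0 with no filter. Quantile normalization moved the members' median to -0.11 in microglia against BMDM, -1.51 in BV2 controls against microglia, -0.999 in BV2 controls against BMDM and -0.0277 in Nwt against pCDH. It turned Tap2 (0.53), Tapbp (0.45) and Psmb10 (0.70) round in microglia against BMDM. The cause of these shifts was not tested. Over all single-gene values and all alternatives other than leaving out a library, 454 kept their side of the threshold. A further 23 lost a call, and 3 turned round and were called, those given here among them. The 454 include changes of sign with no call. Psmb8 in BV2 controls against microglia was at 0.36 as deposited and -0.32 after quantile normalization.

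Leaving out 1 library at a time gave 2 to 8 members called and a median of 0.23 to 0.77 for Nmu against both controls, 0 to 7 and 0.22 to 0.80 against pCDH, and 0 to 8 and 0.25 to 0.71 against Nwt. For the second time against 24 h it was -0.51 to -0.23, and for Nwt against pCDH -0.0570 to 0.0755. Medians were -1.16 to -0.91 for microglia against BMDM and -0.06 to 0.34 for Q175 against Q7, with no test at 3 libraries. BV2 controls gave 7 to 9 called and -0.88 to -0.69 against microglia, and 10 called and -1.76 to -1.32 against BMDM. Without either Nmu library the spread rests on the 4 control libraries and the lone Nmu library is assumed to vary like them; 2991 to 5610 of all genes were then called. Then Tapbp (-0.30) and Psmb9 (-0.48) were called lower at the second time, and over all libraries left out they ranged from -0.30 to 0.20 and from -0.48 to 0.34. Without the second Nmu library Tapbp was called lower with Nmu, and it ranged from -0.47 to 0.48 against pCDH, from -0.45 to 0.50 against Nwt and from -0.46 to 0.49 against both. PU.1 peaks in all 3 constructs were found at 6 members within 5 kb and 6 within 1 kb (a window added after seeing the data), and the excess of PU.1 peaks at B2m with Nmu was 1 at 5 kb and 2 at 50 kb. A stricter peak threshold was not run, because all scores are 1.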
